A study of Homo sapiens and Mus musculus with 13 samples.

Results

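Cystatins are small proteins that bind the active site of papain-like cysteine proteases and block it. The 7 human cystatin genes CST1, CST2, CST3, CST4, CST6, CSTA and CSTB were chosen by name, with their expression in the cell lines below already known, from the 24523 gene symbols of the cell line table. All 7 were listed. A minimum of 0.5 FPKM on the average of the 7 libraries left 6 of them and 12636 symbols in all. FPKM is the number of fragments of a gene scaled by its length and by the mapped fragments of the library. It allows for both when genes or libraries are compared, but not for a change in the makeup of the RNA. The 7th gene, CSTA, was listed at 0 in every library.

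Expression was measured by poly(A) RNA-Seq in 7 libraries of MDA-MB-231, a human triple-negative breast cancer cell line, in which Cas9 and single guide RNAs (sgRNA) were delivered by lentivirus and cells were selected with puromycin. The Control library came from cells with an sgRNA against GFP. TRIM11-KD1 and TRIM11-KD2 had TRIM11 sgRNA 1 or 2, and KDM5C-KD1 and KDM5C-KD2 had KDM5C sgRNA 1 or 2. The double knockdown lines DKD1 and DKD2 had TRIM11 sgRNA 1 or 2, each together with KDM5C sgRNA 2. TRIM11 is a ubiquitin E3 ligase and KDM5C is a demethylase of histone H3 lysine 4, and the comparison asks what happens to transcription when either or both are depleted. The second set was tumors of 3 Trim11+/+ and 3 Trim11+/- female mice aged 3 months, all hybrids of the transgenic strain FVB/N-Tg (MMTV-PyVT) 634Mul/J with C57BL/6N, in which a viral oncogene is driven by a mammary tumor virus promoter. Exons 2 to 6 were deleted from 1 Trim11 allele in the Trim11+/- mice. Those were whole tumors, in which fewer cells of a type and less RNA per cell cannot be told apart.

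The 2 lines of a knockdown have different guides or guide pairs, and the labels do not say whether they are separate infections, so their spread includes the guide. Only 1 Control library exists and every comparison with Control shares it. The total FPKM was between 493543 and 513462 in the 7 libraries, and the sequencing depth behind these values is unknown. KDM5C was at 30.3 FPKM in Control and between 18.8 and 22.7 FPKM in the 4 libraries with a KDM5C guide. TRIM11 was at 12.6 FPKM in Control, 10.6 in TRIM11-KD2 and 9.38 in DKD2, but at 13.4 in the library labelled TRIM11-KD1 and 16.1 in the library labelled DKD1, which go against their labels at the mRNA level. A Cas9 guide can disable a gene without lowering its mRNA, and protein was not measured in these files. The study states that its knockdown lines were checked by western blotting. Of the markers of the cell line, VIM (1038 to 1309 FPKM), CD44 and EGFR were present, PGR was listed at 0, ESR1 stayed at or under 0.023 FPKM, CDH1 was between 0.615 and 1.98 FPKM, and ERBB2 was not absent, at 17.8 to 23.7 FPKM.

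The cystatins of the rule belong to 2 classes. Stefins, or type 1 cystatins (CSTA and CSTB), have no signal peptide and act mainly inside cells. Type 2 cystatins are secreted and include cystatin C (CST3), which most tissues make, cystatin E/M (CST6), which blocks legumain as well as cathepsins and is known from skin and breast epithelium, and the salivary cystatins SN (CST1), SA (CST2) and S (CST4). Cystatins in the fluid around cells restrain cathepsins that degrade extracellular matrix.

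CST1, CST2 and CST4 are close copies of one another, and reads of such copies could be assigned to the wrong gene. The first 120 coding bases of CST2 and CST4 are shown to give an idea of how alike they are. They were read from the minus strand of chromosome 20 of hg19, at chr20:23807178-23807297 for CST2 and chr20:23669487-23669606 for CST4, and capitals mark the bases that differ between them.
CST2: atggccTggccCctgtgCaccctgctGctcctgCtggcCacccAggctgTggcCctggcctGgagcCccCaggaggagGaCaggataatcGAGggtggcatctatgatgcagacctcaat
CST4: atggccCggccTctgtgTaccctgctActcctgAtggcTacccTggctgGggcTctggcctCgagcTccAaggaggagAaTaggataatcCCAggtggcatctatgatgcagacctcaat
Over these 120 bases CST2 and CST4 differed at 17 positions, and over the whole coding sequence they were 92.4% identical. Over the whole coding sequence, CST1 was 92.7% identical to CST4, 91.3% to CST2 and 69.6% to CST3, while CST6 (52.6%) and CSTB (44.6%) were further away. The reads were 150 bases long, and only 3 of the 600 stretches of that length in the CST1 transcript also occurred in CST4 and 0 occurred in CST2. How the counting divided shorter or ambiguous matches is not given in the sources used here, so the values of CST1, CST2 and CST4 are less certain as single genes than as a group.

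In the plot of FPKM by library, the cystatins fell into 4 patterns. CST1, CST2 and CST4 were far below Control in most knockdown libraries, CST3 was below Control in all of them by a smaller factor, CST6 was above Control by 1.36 to 112 times, and CSTB stayed near it. These patterns are part of what chose the genes and are given as a description, with no test.

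**Figure D1:**
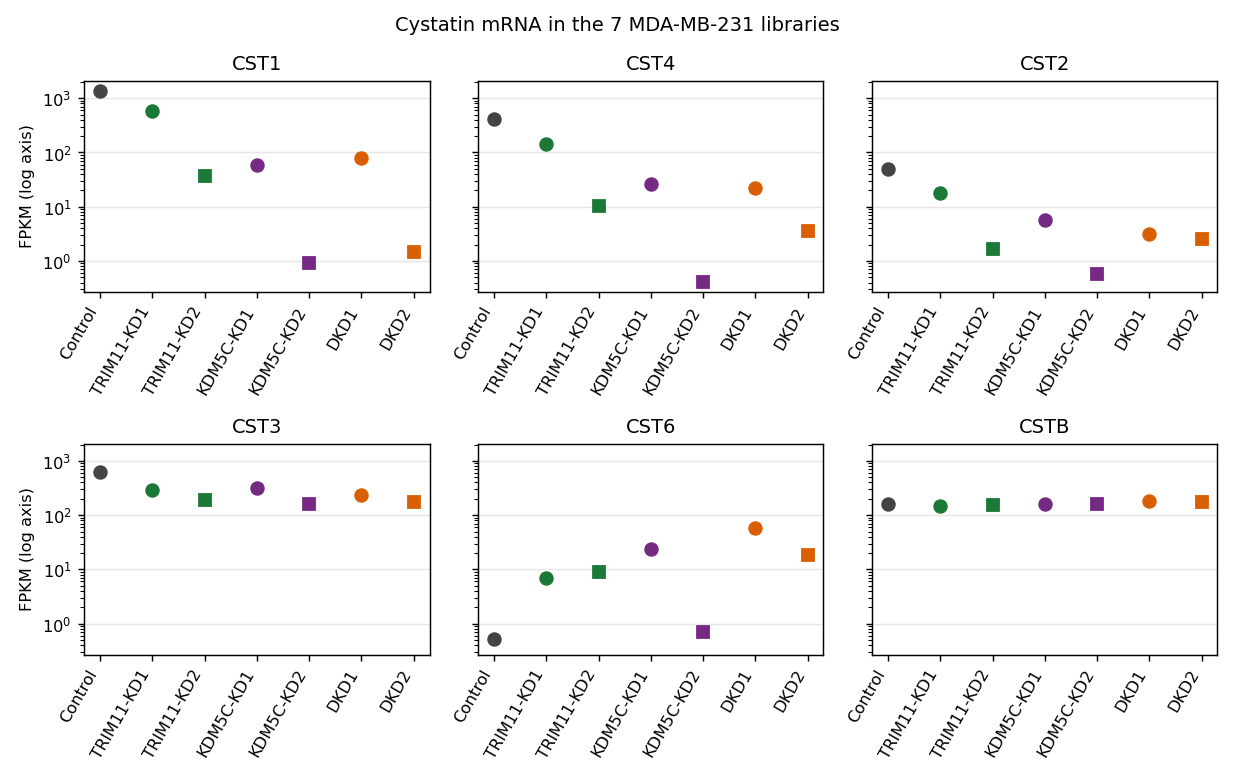
FPKM (log axis) of 6 cystatin genes in the 7 MDA-MB-231 libraries, 1 point per library, with circles for Control and for lines numbered 1 and squares for lines numbered 2. CST1 runs from 1380 FPKM in Control to 0.907 in KDM5C-KD2, CST6 runs the other way from 0.520 in Control to 58.4 in DKD1, and CSTB is between 145 and 179 FPKM throughout. CSTA is not drawn, being listed at 0.

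CST1 encodes cystatin SN (ENSG00000170373.9_8, chr20:23728199-23731905 of hg19, minus strand, 3 exons). Its level was 1380 FPKM in Control, 575 in TRIM11-KD1, 37.01 in TRIM11-KD2, 58.5 in KDM5C-KD1, 0.907 in KDM5C-KD2, 77.7 in DKD1 and 1.49 in DKD2. Control was the highest library and the libraries with the lowest levels were KDM5C-KD2 and DKD2, which share KDM5C sgRNA 2. DKD1 has that guide too and was 85.7 times above KDM5C-KD2. In Control CST1 ranked 35th from the highest of 24523 symbols, and in KDM5C-KD2 it ranked 11736th. Against Control CST1 was 2.40-fold lower in TRIM11-KD1 and 37.3-fold lower in TRIM11-KD2. It was 23.6-fold lower in KDM5C-KD1 and 1522-fold lower in KDM5C-KD2. The DKD lines were 17.8-fold and 925-fold below Control. The mean log2 ratio to Control was -3.24 ± 2.80 (SD, n = 2 lines) in TRIM11-KD, -7.57 ± 4.25 in KDM5C-KD and -7.00 ± 4.03 in DKD, so the knockdowns overlapped one another and the spread between lines of a knockdown exceeded the differences between KDM5C-KD and DKD.

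CST4 encodes cystatin S (ENSG00000101441.5_8, chr20:23666277-23669675, minus strand). Its level was 416 FPKM in Control, 142 and 10.2 in the TRIM11-KD lines, 26.4 and 0.406 in the KDM5C-KD lines, and 22.0 and 3.60 in the DKD lines. The order of the libraries was that of CST1 except that KDM5C-KD1 stood above DKD1. CST4 was 2.93-fold and 40.7-fold below Control in TRIM11-KD1 and TRIM11-KD2, 15.8-fold and 1025-fold below it in the KDM5C-KD lines, and 18.9-fold and 116-fold below it in the DKD lines. The mean log2 ratio was -3.45 ± 2.68 (SD, n = 2) in TRIM11-KD, -6.99 ± 4.26 in KDM5C-KD and -5.55 ± 1.85 in DKD. The levels of CST4 in KDM5C-KD2 and of CST1 in the same library are under 1 FPKM, where the factor rests on few fragments of unknown number.

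CST2 encodes cystatin SA (ENSG00000170369.4_8, chr20:23804406-23807366, minus strand) and was the lowest of the salivary cystatins in Control, at 49.9 FPKM. It was at 18.0 and 1.66 FPKM in the TRIM11-KD lines, 5.72 and 0.587 in the KDM5C-KD lines, and 3.18 and 2.53 in the DKD lines. CST2 was 2.77-fold and 30.0-fold below Control in TRIM11-KD, 8.73-fold and 85.0-fold below it in KDM5C-KD, and 15.7-fold and 19.7-fold below it in DKD. The factor of 85.0 rests on a level of 0.587 FPKM, again few fragments of unknown number. The DKD lines differed from each other by a factor of 1.26 for CST2, against 52.1 for CST1 and 6.12 for CST4. Both DKD lines were above KDM5C-KD2 and below KDM5C-KD1, so the pairs of libraries overlapped.

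Among these copies the proportions were kept in some libraries and not in others. CST1 was 3.32 times the FPKM of CST4 in Control, between 3.53 and 4.04 times in TRIM11-KD1, TRIM11-KD2 and DKD1, and 2.22 and 2.23 times in the KDM5C-KD lines. In DKD2 it was 0.414 times CST4, the 1 library in which CST1 was the lower. CST1 was 27.7 times CST2 in Control, 1.54 times CST2 in KDM5C-KD2 and 0.589 times CST2 in DKD2. In KDM5C-KD2 the levels of CST1, CST2 and CST4 were 0.907, 0.587 and 0.406 FPKM, and in DKD2 they were 1.49, 2.53 and 3.60. Ratios at such levels rest on few fragments of unknown number, from copies whose reads could be assigned to the wrong gene.

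CST3 encodes cystatin C (ENSG00000101439.9_9, chr20:23607343-23619110, minus strand). Its level was 622 FPKM in Control, 285 and 194 in the TRIM11-KD lines, 314 and 163 in the KDM5C-KD lines, and 239 and 176 in the DKD lines. Control was again the highest library and KDM5C-KD2 the lowest, and the knockdowns overlapped. CST3 was 2.18-fold and 3.20-fold below Control in TRIM11-KD, 1.98-fold and 3.81-fold below it in KDM5C-KD, and 2.60-fold and 3.53-fold below it in DKD. Its mean log2 ratio was -1.40 ± 0.39 (SD, n = 2) in TRIM11-KD, -1.46 ± 0.67 in KDM5C-KD and -1.60 ± 0.31 in DKD, values closer to each other than the lines of KDM5C-KD were. At its lowest, in KDM5C-KD2, CST3 ranked 458th of 24523 symbols.

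CST6 encodes cystatin E/M and lies apart from the cluster (ENSG00000175315.3_6, chr11:65779479-65780976, plus strand). It was at 0.520 FPKM in Control, 7.07 and 9.09 in the TRIM11-KD lines, 23.6 and 0.709 in the KDM5C-KD lines, and 58.4 and 18.4 in the DKD lines. Control was the lowest library, with KDM5C-KD2 next to it, and both DKD lines were above both TRIM11-KD lines. CST6 was 13.6 and 17.5 times Control in TRIM11-KD, 112 and 35.4 times Control in DKD, and 45.4 times Control in KDM5C-KD1. In KDM5C-KD2 it was 1.36 times Control, so the KDM5C-KD lines differed by a factor of 33.3. DKD1 was 82.4 times and DKD2 26.0 times above KDM5C-KD2, with which they share KDM5C sgRNA 2. The Control level is close to the minimum of 0.5 FPKM, so the factors depend strongly on it, and with 1 FPKM added to every value the mean log2 ratio in DKD was 4.48 in place of 5.98.

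CSTB encodes stefin B (ENSG00000160213.9_8, chr21:45192392-45196211, minus strand). It was at 160 FPKM in Control, 145 and 155 in TRIM11-KD, 157 and 161 in KDM5C-KD, and 179 and 175 in DKD. The ratios to Control lay between 0.905 and 1.12. CSTA, for stefin A of skin and lymphoid tissue (ENSG00000121552.4_6, chr3:122044095-122060816, plus strand), was listed at 0 in all libraries, and no ratio can be given for it.

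A gene was called higher or lower in a knockdown if its 2 lines both differed from Control in that direction by a factor of 1.5 or more. By this rule 4 cystatins (CST1, CST2, CST3 and CST4) were lower in TRIM11-KD, where 2.58% of all 12636 genes were lower, and 1, CST6, was higher, against 3.25% of all genes. The same 4 genes were lower in KDM5C-KD (3.97% of all genes) and 0 were higher (5.22%). They were lower in DKD as well (4.87%), and CST6 was higher (5.71%). The 4 were at least 1.5 times below Control in each of the 6 knockdown libraries, as were 115 genes in all, or 0.91%, and 0 were as far above Control in all 6 (1.16% of all genes). Nothing is read from these shares, since the same values chose the genes. The comparison nearest to the threshold among these calls was CST3 in KDM5C-KD1, and CST6 in KDM5C-KD2 fell just short of it. TRIM11-KD2 and DKD2 were the knockdown lines whose TRIM11 mRNA was below Control. With only these lines the counts in TRIM11-KD and DKD were 4 lower and 1 higher. They could not have been smaller, since a gene that passes in both lines passes in either, so nothing is read from them. The median log2 ratio of the 6 cystatins was -2.29 in TRIM11-KD, -3.11 in KDM5C-KD and -2.87 in DKD, while that of all 12636 genes was -0.016, -0.012 and -0.011.

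**Figure D2:**
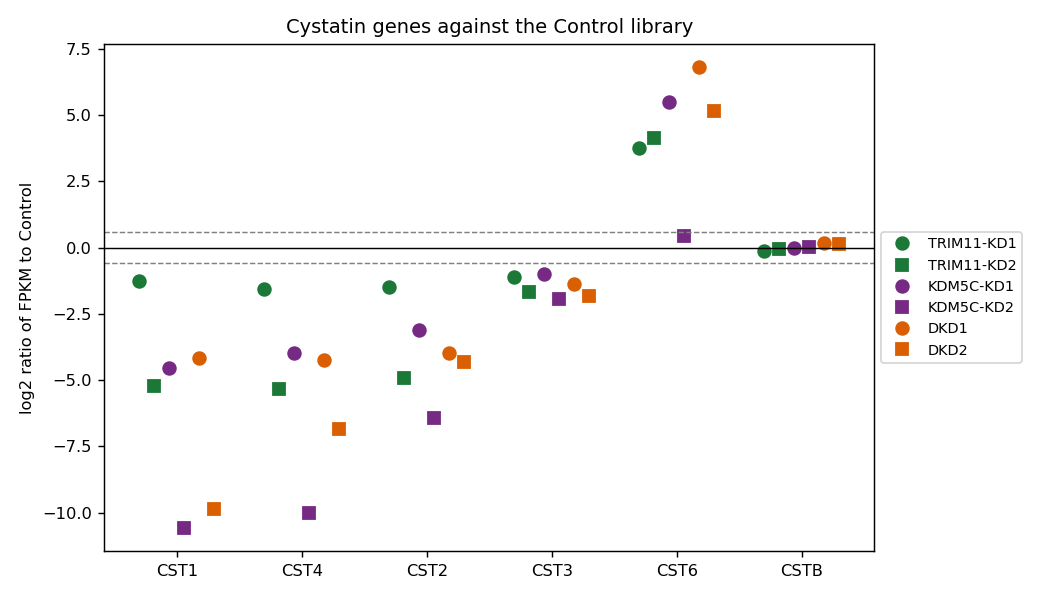
log2 ratio of FPKM to the Control library for 6 cystatin genes, 1 point per knockdown library, with circles for lines numbered 1 and squares for lines numbered 2. The dashed lines are a 1.5-fold change in either direction. CST1, CST4, CST2 and CST3 lie below the lower line in all 6 libraries, CST6 lies above the upper line in 5 of them, and CSTB lies between the lines.

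Within each knockdown, the line numbered 2 was below the line numbered 1 for all of CST1, CST2, CST3 and CST4. For these 4 genes every library numbered 2 was also below every knockdown library numbered 1. For CST1 the libraries numbered 1 were between 58.5 and 575 FPKM and those numbered 2 between 0.907 and 37.01 FPKM. For CST3 the same ranges were 239 to 314 and 163 to 194 FPKM. Over all genes 8.14% were separated in this way and direction. For a KDM5C guide, 0 cystatins separated all 4 libraries with it from all 3 without one. Over all genes 5.07% did so lower and 5.64% higher with the guide. For a TRIM11 guide, 0 cystatins were lower in all 4 libraries with it than in all 3 without one (4.55% of all genes). Nothing is read from these counts, which are of few genes at small shares and come from the values that chose the genes. The number is that of the TRIM11 guide in TRIM11-KD and DKD and of the KDM5C guide in KDM5C-KD, and whether it also marks a shared culture or day is not given in the labels. Guide and culture therefore cannot be told apart in these pairs.

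The summed FPKM of the 7 cystatins was 0.525% of all FPKM in Control. It was 0.236% and 0.0806% in the TRIM11-KD lines, 0.118% and 0.0657% in the KDM5C-KD lines, and 0.117% and 0.0735% in the DKD lines. The makeup of that sum changed with it. CST1 was 52.5% of the cystatin FPKM in Control and 49.1% in TRIM11-KD1, and between 0.277% and 13.4% in the other libraries. CST3 was 23.7% of the cystatin FPKM in Control and 53.6% in KDM5C-KD1, and CSTB was 6.08% in Control and 49.3% in KDM5C-KD2. CST6 made up 10.1% in DKD1, its highest share.

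CST3, CST4, CST1, CST2 and CST5 lie next to one another, in this order along chromosome 20 and all on the minus strand, in a cluster that also holds CSTL1, CST11, CST8, CST9L and CST9. The last 5 were listed at 0 in every library, and CST5, cystatin D, was under the minimum at 0 to 0.570 FPKM. On each side of the cluster the 5 nearest protein-coding genes were taken, 10 in all, of which 7 passed the minimum. By the rule for both lines 0 of these 7 were lower in any knockdown. Over all genes 2.58% were lower in TRIM11-KD, 3.97% in KDM5C-KD and 4.87% in DKD, so 0 of 7 says little. Called higher were 1 of the 7 in TRIM11-KD (3.25% of all genes), 0 in KDM5C-KD (5.22%) and 2 in DKD (5.71%). Counts so small say little too. NXT1, a cofactor of mRNA export, was between 20.5 and 30.8 FPKM, APMAP was between 83.1 and 102 FPKM, and GZF1 and NAPB were between 4.11 and 5.63 and between 1.96 and 2.96 FPKM. THBD, thrombomodulin, ranged from 5.72 FPKM in KDM5C-KD2 to 26.1 in DKD1, with 12.2 in Control. The neighbours had median log2 ratios of 0.16 in TRIM11-KD, -0.038 in KDM5C-KD and 0.10 in DKD.

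**Figure D3:**
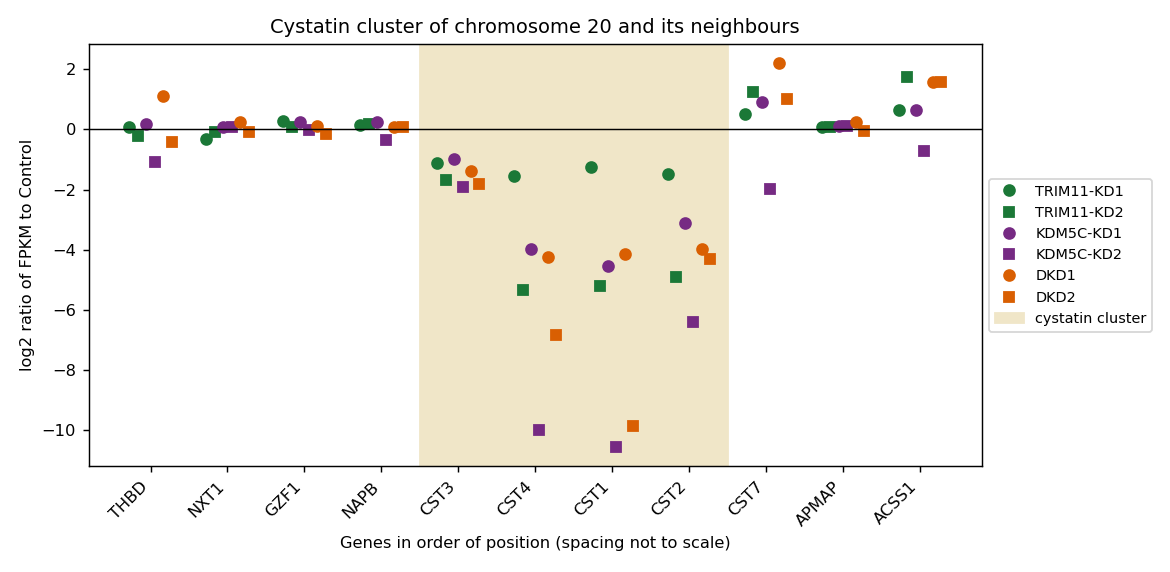
log2 ratio of FPKM to Control for the genes of the chromosome 20 region that passed the minimum, in the order of their positions with spacing not to scale, 1 point per knockdown library. The shaded genes CST3, CST4, CST1 and CST2 lie below 0 in all libraries, down to -10.57 for CST1, while the 7 neighbours lie between -1.97 and 2.20.

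CST7, which encodes cystatin F of immune cells, lies beyond the cluster and was among those neighbours. Its level was 4.66 FPKM in Control, 6.58 and 10.96 in TRIM11-KD, 8.84 and 1.19 in KDM5C-KD, and 21.4 and 9.33 in DKD. It was called higher in DKD, and KDM5C-KD2 was again the lowest library. ACSS1, a mitochondrial acetyl-CoA synthetase, was at 2.02 FPKM in Control, 3.17 and 6.82 in TRIM11-KD, 3.18 and 1.21 in KDM5C-KD, and 6.01 and 6.05 in DKD. It was called higher in TRIM11-KD and in DKD, and its KDM5C-KD minus DKD difference was -1.21 by limma (standard error 0.39, unadjusted p = 0.0217, adjusted p = 0.388). Of the 11 other genes of the cystatin superfamily that were listed, 8 were at 0 in every library and CST7 was the only one tested. Between knockdowns, limma on log2(FPKM + 1) gave CST7 a KDM5C-KD minus DKD difference of -1.71 (standard error 0.73, Benjamini-Hochberg adjusted p = 0.445), and that comparison had 0 genes with an adjusted p under 0.05 (0%) and 1473 with an unadjusted p under 0.05, or 11.7%.

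The proteases that cystatins restrain were the next list, of 11 cysteine cathepsins and legumain. All 12 were listed and 11 passed the minimum, CTSW being under it. In TRIM11-KD 0 of them were changed in either direction, against 3.25% of all genes higher and 2.58% lower. In KDM5C-KD 2 were higher, CTSC and CTSV, against 5.22% of all genes. In DKD 1 was higher, CTSV, against 5.71% of all genes. In both knockdowns 0 were lower, against 3.97% of all genes in KDM5C-KD and 4.87% in DKD. CTSC, the dipeptidyl peptidase that activates granule serine proteases, was at 61.1 FPKM in Control, 66.7 and 93.6 in TRIM11-KD, 110 and 131 in KDM5C-KD, and 79.6 and 113 in DKD. Both KDM5C-KD lines were above both TRIM11-KD lines and overlapped the DKD lines. CTSV, close in sequence to CTSL, was at 0.323 FPKM in Control, 0.568 and 0.554 in KDM5C-KD and 0.870 and 0.795 in DKD, levels near the minimum. The other proteases did not pass the rule. CTSZ had the highest level of the list in Control, 178 FPKM, and was between 139 and 171 FPKM in the knockdown libraries. CTSB was at 121 FPKM in Control, 71.1 in TRIM11-KD2 and 62.6 in DKD2, and between 108 and 143 in the other lines. CTSL was between 51.8 and 64.3 FPKM in all 7 libraries, and LGMN, legumain, between 25.9 and 57.3.

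**Figure D4:**
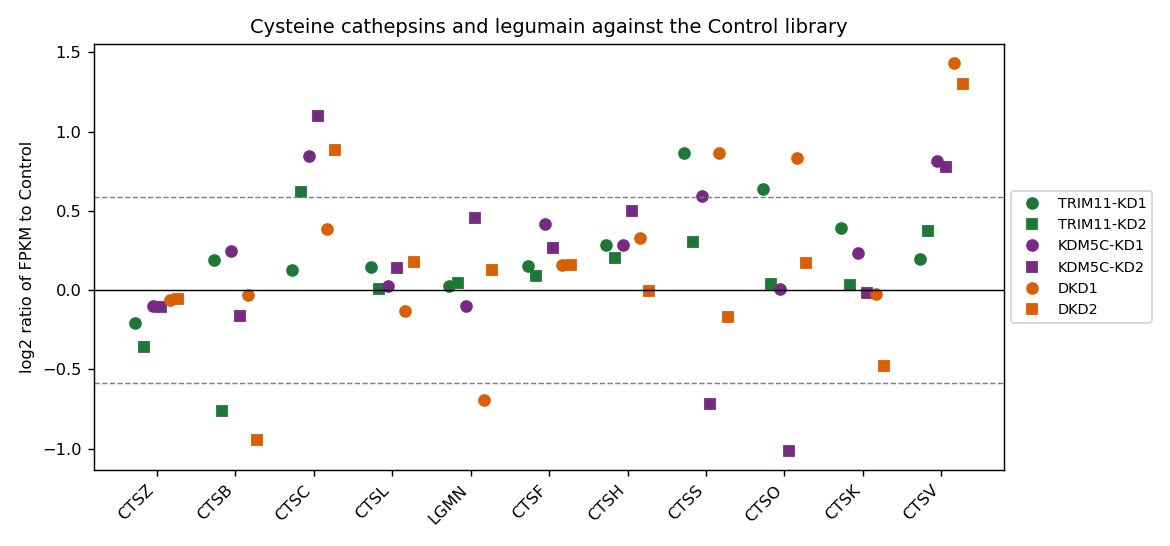
log2 ratio of FPKM to Control for the 10 cathepsins and legumain that passed the minimum, ordered by mean FPKM, 1 point per knockdown library. Dashed lines mark a 1.5-fold change. Only CTSC in KDM5C-KD and CTSV in KDM5C-KD and DKD have both lines past the upper line.

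The median log2 ratio of the 11 proteases was 0.21 in TRIM11-KD, 0.11 in KDM5C-KD and 0.16 in DKD. Between knockdowns, limma called 0 of the 11 in any of 3 comparisons, and the lowest adjusted p was 0.465. In KDM5C-KD minus TRIM11-KD, CTSC had a log2 difference of 0.60 (standard error 0.23, limma unadjusted p = 0.0419, adjusted p = 0.502). That comparison had 0 of 12636 genes with an adjusted p under 0.05 and 9.82% with an unadjusted one, and TRIM11-KD minus DKD had 0 and 7.03%.

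Among 196 genes outside the family with a mean of at least 5 FPKM and a highest level at least 4 times the lowest, genes much like CST1 over the 7 libraries, by Pearson's r of log2(FPKM + 0.1), included CEMIP (r = 0.94), PLAT (0.92), TNFRSF10D (0.90) and SPDEF (0.87). CEMIP, a protein of hyaluronan breakdown, was at 54.2 FPKM in Control and 85.7 in TRIM11-KD1, and lowest in KDM5C-KD2 at 1.68 and DKD2 at 4.90. PLAT, tissue plasminogen activator, was at 176 FPKM in Control and lowest in KDM5C-KD2 at 15.4. SPDEF, an epithelial ETS transcription factor, was at 30.3 FPKM in Control and at 0.675, 1.07 and 0.339 in the lines numbered 2. For CST6 the likest genes were STMN3 (r = 0.90), LCN2 (0.85), TRIM16L (0.84), HLA-DPA1 (0.81) and NOG (0.81). LCN2, a siderophore-binding protein of epithelia, was at 2.56 FPKM in Control, 22.0 in DKD1 and 1.52 in KDM5C-KD2. These r values describe 7 libraries that share a cell line and a Control, and no p is given for them.

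The tumors were not used to choose the genes, so here the cystatins could be tested. Of 32 mouse genes of the family that were looked for, 23 were listed and 4 passed a mean of 0.5 FPKM: Cst3, Cstb, Cst6 and Cst7. The targeted gene, Trim11, was at 37.1 ± 1.84 FPKM (SD, n = 3) in Trim11+/+ and 23.2 ± 0.660 in Trim11+/- tumors. Library totals recovered from the FPKM steps were between 8793199 and 11117125 reads. The study's thresholds, a 1.5-fold change and a p under 0.05, were applied to mean FPKM and to the unadjusted p of limma, which is not named by the study. By this rule 0 of the 4 cystatins changed, against 1.74% of 17328 genes higher and 1.87% lower. The genotypes overlapped for each of the 4, and did not overlap for 13.4% of all genes. Over all genes, 1 had a limma adjusted p under 0.05 (0.00577%) and 1202 an unadjusted one (6.94%).

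Cst3, mouse cystatin C (ENSMUSG00000027447.6, chr2:148871722-148875692 of mm10), was at 176, 290 and 192 FPKM in the Trim11+/+ tumors and 241, 198 and 111 FPKM in the Trim11+/- tumors. The highest tumor was Trim11+/+ and the lowest Trim11+/-, and the others were mixed. The means were 219 ± 61.8 and 184 ± 66.3 FPKM (SD, n = 3 each), a log2 difference of -0.29 (standard error 0.32, limma adjusted p = 0.877), and the two-sided exact permutation p was 0.6, where 3 tumors against 3 cannot give less than 0.1. Each value rests on 1512 to 3735 reads.

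Cstb, mouse stefin B, was at 124, 122 and 129 FPKM in Trim11+/+ and 127, 144 and 141 FPKM in Trim11+/- tumors. Its means were 125 ± 3.58 and 137 ± 9.26 FPKM (SD, n = 3 each), with a log2 difference of 0.13 (standard error 0.10, limma adjusted p = 0.816, exact permutation p = 0.2). It was the least variable of the 4 and the genotypes overlapped by 1 tumor.

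Cst6 was low in these tumors, at 1.25, 0.409 and 0.633 FPKM in Trim11+/+ and 0.374, 0.584 and 0.205 FPKM in Trim11+/-, from 9 to 56 reads. Its highest tumor was Trim11+/+, and the genotypes overlapped. The means were 0.765 ± 0.437 and 0.388 ± 0.190 FPKM (SD, n = 3 each), a log2 difference on the log2(FPKM + 1) scale of -0.33 (standard error 0.24, limma adjusted p = 0.813, exact permutation p = 0.2). The markers of basal or myoepithelial cells Krt5, Krt14 and Acta2, none of them at 0 in every tumor, summed to between 119 and 302 FPKM in Trim11+/+ and between 54.6 and 84.0 FPKM in Trim11+/- tumors, without overlap and with 0 of 3 called by adjusted p. Of all single genes 13.4% did not overlap, and no such share was computed for sums of markers. The part of the basal markers in the level of Cst6 was not tested. Cst7 was at 0.278, 1.10 and 0 FPKM in Trim11+/+ and 0.821, 0.346 and 0.472 FPKM in Trim11+/- tumors, from at most 11 reads, with a log2 difference of 0.14 (standard error 0.31, limma adjusted p = 0.946, exact permutation p = 0.8). The T cell markers Cd3e, Cd3d, Cd8a and Cd4, none of them at 0 in every tumor, summed to between 1.35 and 2.39 FPKM in Trim11+/+ and between 0.664 and 1.30 FPKM in Trim11+/- tumors, without overlap (13.4% of single genes) and with 0 of 4 called by adjusted p. The sums of the macrophage, neutrophil and cytotoxic cell markers overlapped, as did those of epithelium, fibroblasts and endothelium. The part of the immune cell markers in the level of Cst7 was not tested. Counts this low limit what could be detected for Cst6 and Cst7. The stefin A genes had at most 3 recovered reads in any tumor or, for Csta3, at most 0.678 FPKM.

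**Figure D5:**
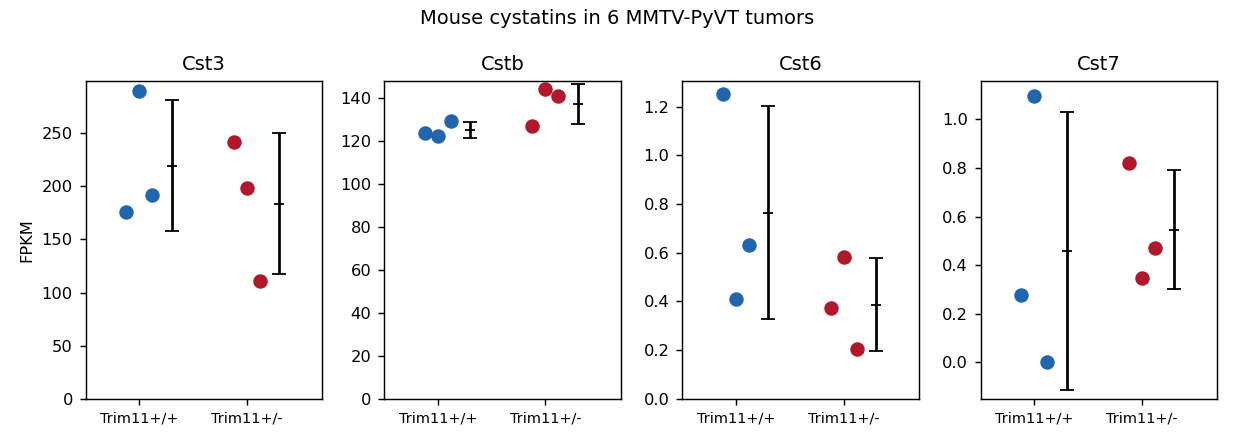
FPKM of 4 mouse cystatin genes in tumors of 3 Trim11+/+ and 3 Trim11+/- mice, 1 point per tumor, with the mean and SD beside each group (linear axes of different scale). The genotypes overlap for each gene, with Cst3 between 111 and 290 FPKM, Cstb between 122 and 144, and Cst6 and Cst7 at or under 1.25.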

How the data were processed

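Expression was measured by paired-end RNA-Seq of 150 bp from non-directional poly(A) libraries, 1 per cell line or tumor. The authors name FastQC and Cutadapt for quality control and trimming and HISAT2 2.1.0 for mapping to hg19 or mm10. The sample records list Bowtie 0.12.2 instead, so which aligner gave these values is not certain. For expression levels the authors name Cufflinks with default parameters, and they deposited FPKM values. The annotation was not given in the sources used here. Where rows shared a symbol, the one with the highest mean was kept, and 25 human symbols turned into dates were dropped. Ratios to Control used FPKM as deposited. Tests used limma 3.58.1 in R 4.3.3 (lmFit, eBayes with trend) on log2(FPKM + 1), which understates changes of low genes, for genes averaging 0.5 FPKM or more, with Benjamini-Hochberg adjustment over all genes tested, 12636 human and 17328 mouse. Self-tests on simulated data recovered the simulated signs. The changed genes there were well expressed and had less spread than CST1 had between lines, so the power for these data was not measured. Positions and coding sequences came from GENCODE annotation of hg19 and mm10, and identities from Biopython 1.88 alignments. Tumor FPKM values were checked against gene lengths, and for 98.7% to 98.8% of the genes checked they gave whole reads within 0.01 reads. Estimates by Cufflinks need not be whole reads, so how the tumor values were computed is not certain. Only samples labelled as separate lines or tumors were counted as replicates, and p-values measure the spread between them.

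The members and lists were chosen with earlier results of these data known. Genes named were the 7 cystatins, all listed genes of the protease, cystatin and neighbour lists, the targeted genes, and for CST1 and CST6 the 5 genes with the highest Pearson r, small RNAs and ribosomal protein genes passed over. A gene of these and some sequences are not reported here. Alternatives were pseudocounts, scalings, filters, a fold of 2, the mean of the lines, eBayes without a trend, Control in the fit and a replicate block. Each knockdown library or tumor was also left out in turn. ChIP-Seq data were not analysed here.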

Additional observations from a re-analysis of the deposited data

Results flagged for a closer look

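CSTB was flagged because both TRIM11-KD lines were below Control and both DKD lines above it, with ratios to Control between 0.905 and 1.12. Its mean log2 ratio was -0.0949 in TRIM11-KD and 0.148 in DKD, and the difference was not tested, since these libraries were used to choose the gene. CTSK, a cathepsin of bone resorption at 1.55 FPKM in Control, was flagged for the opposite pattern, with mean log2 ratios of 0.21 in TRIM11-KD and -0.25 in DKD. Between those knockdowns limma gave CTSK an adjusted p of 0.748. The share of all genes with either pattern was not counted, so nothing is read from these flags.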

How the results depend on the processing

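The calls of 4 lower cystatins in each knockdown, and of CST6 as higher in TRIM11-KD and DKD, were the same under pseudocounts of 0.1 and 1 and both scalings. They were also the same with the mean of the lines and with each knockdown library left out. Those settings could not remove a call that needs both lines, so they do not test it. The Control library, on which every ratio rests, could not be left out. With a fold of 2 the lower cystatins in KDM5C-KD were 3 in place of 4, since CST3 in KDM5C-KD1 was 1.98-fold below Control, and the other of these calls were the same. The count of cystatins higher in KDM5C-KD went from 0 to 1, which is CST6, with the mean of the lines, and was 0 to 1 when a library was left out (1 without KDM5C-KD replicate 2). The cathepsin counts, when libraries were left out, were 1 to 2 higher and 0 to 1 lower in TRIM11-KD, 0 to 2 lower in KDM5C-KD, and 2 to 3 higher and 1 to 1 lower in DKD. In KDM5C-KD the 2 higher cathepsins became 1 with a pseudocount of 1 and 0 with a fold of 2, and in DKD the 1 became 0 with a pseudocount of 1. The log2 ratios of single cystatins moved by more than the spread of the lines in 3 cases, all with a pseudocount of 1: CST2 in DKD (-3.73), CST6 in TRIM11-KD (2.57) and CST6 in DKD (4.48). Leaving out 1 of 2 lines cannot move their mean by more than their SD, so this measure does not show dependence on single lines. For CST6 in KDM5C-KD the mean log2 ratio was 2.98, with 0.448 without replicate 1 and 5.50 without replicate 2.

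The counts of all genes against Control, higher then lower, were 411 and 326 in TRIM11-KD, 660 and 502 in KDM5C-KD, and 722 and 616 in DKD. With a pseudocount of 1 they were 128 and 150, 336 and 317, and 404 and 368. With a fold of 2 they were 142 and 69, 261 and 206, and 316 and 231. With the mean of the lines they were 774 and 716, 1086 and 1056, and 1160 and 1148. With any mean FPKM above 0 they were 1160 and 1290, 1369 and 1640, and 1445 and 1831. With a library left out, which leaves 1 line, they were 698 to 1101 and 547 to 1194, 1030 to 1454 and 776 to 1648, and 1200 to 1432 and 1097 to 1552. Limma called 0 genes in each comparison of knockdowns. In KDM5C-KD minus TRIM11-KD it called 2 with a pseudocount of 0.1, 1 with any mean above 0, 2 without a trend and 1 to 10 with a library left out. In TRIM11-KD minus DKD these were 1, 1, 2 and 0 to 7, and in KDM5C-KD minus DKD 0 to 17 with a library left out. In tumors 301 genes were higher and 324 lower, which became 479 and 491 with any mean above 0, and 1 and 0 by adjusted p.

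Directions turned in 2 cases when 1 tumor was left out. The log2 difference of Cst3 was 0.031 without Trim11+/- replicate 3 and -0.52 to 0.031 over all tumors left out, and that of Cst7 was -0.094 without Trim11+/+ replicate 3 and -0.094 to 0.44 over all. The cause was not tested. Over all alternatives the lowest adjusted p of the 4 mouse cystatins was 0.771. In the cell lines TRIM11-KD and DKD lines of the same number share their TRIM11 guide. KDM5C-KD2 shares KDM5C sgRNA 2 with both DKD lines, between which no KDM5C guide differs. No source says that a number marks a shared culture or day, and tumors of the same number share only the number. For the same number, correlations of deviations were 0.37 for TRIM11-KD with DKD, 0.27 for KDM5C-KD with DKD and 0.09 for KDM5C-KD with TRIM11-KD. In tumors they were -0.33, 0.04 and -0.13. With the replicate block limma called 0 genes in each of the 3 comparisons of knockdowns, and it changed no call of a mouse cystatin. The limits are 1 Control library, 2 lines a knockdown, unknown depth in the cell lines and few reads for Cst6 and Cst7.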
